A study of Equus caballus with 23 samples.

Results

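Antioxidant enzymes were examined in gluteus medius muscle of Arabian horses as a set of 10 listed genes covering superoxide dismutases, catalase, peroxiredoxins, mitochondrial thioredoxin and glutathione reductase. Members were taken by symbol from the authors' annotation, which gave an identifier for 9 of the 10 (SOD1, SOD2, CAT, PRDX2, PRDX3, PRDX5, PRDX6, TXN2 and GSR). No identifier carried the symbol PRDX1, so that gene was not analysed here. The table held 26991 genes, of which 11545 passed the filter on low counts, and these included all 9 members.

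Working muscle fibres produce superoxide, chiefly in mitochondria and at membrane oxidases. Superoxide dismutases turn superoxide into hydrogen peroxide, and catalase, peroxiredoxins and glutathione peroxidases reduce the peroxide to water. Peroxiredoxins and glutathione peroxidases become oxidized in doing so and are restored by thioredoxin and glutathione, whose own recycling draws on NADPH. Slow and oxidative fibres, which are rich in mitochondria, are known for a higher antioxidant enzyme content than fast glycolytic fibres.

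The gluteus medius drives the hindlimb, and its RNA was sequenced from needle biopsies in 23 libraries numbered m1 to m23. At T0 the 5 biopsied horses were untrained and 2.5 years old (3 male, 2 female). The 8 horses of T1 (4 male, 4 female) had finished an intense gallop phase but had not begun the flat racing season, and the 10 horses of T2 (7 male, 3 female) had reached its end, both groups at an age of 3 years. All were Arabian horses, and no group received an agent or carried an engineered allele per the labels. The labels do not say whether the same horse was biopsied at more than 1 time point, so libraries were treated as unpaired, and training cannot be told apart from age in comparisons with T0.

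Libraries held 12604125 to 17477172 counts at T0, 15417737 to 23641809 at T1 and 12185608 to 19804694 at T2. All 6 skeletal muscle fibre markers were abundant, led by ACTA1 at a mean of 17930 CPM (a read count scaled to a common library size). Macrophage markers were near 0, with a sum over the 6 measured of 12 listed markers of 5.94 to 19.3 CPM per library. None of 14 erythroid and 12 neutrophil markers had an identifier under its symbol, and they were not analysed here. T1 library m3 stood apart: its slow minus fast fibre score, the mean log2 CPM of 15 slow fibre contractile genes minus that of 13 fast fibre ones, was 3.79, against 0.57 in the next T1 library, and its TMM factor of 0.66 was the lowest of all. T0 library m12 had the next lowest factor (0.75), and both raise the CPM of these libraries relative to a plain scaling by total count. The mitochondrial genome supplied 42.9% ± 7.77 (SD, n = 5) of reads at T0, 53.0% ± 3.99 (SD, n = 8) at T1 and 48.1% ± 2.87 (SD, n = 10) at T2.

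The 9 members are protein-coding genes, each with a single annotated transcript whose counts equalled those of the gene in every library. Coordinates follow the authors' tables, and the sources used here do not give their genome build. SOD1 (ENSECAG00000008958) lies at chr26:28573192-28580388, SOD2 (ENSECAG00000011797) at chr31:2049322-2057348 and CAT (ENSECAG00000019408) at chr12:1237921-1259218. PRDX2 (ENSECAG00000011541) lies at chr7:45573319-45575352, PRDX3 (ENSECAG00000017026) at chr1:13276929-13285268, PRDX5 (ENSECAG00000017747) at chr12:24611439-24614297 and PRDX6 (ENSECAG00000022468) at chr5:9247906-9257821. TXN2 (ENSECAG00000013929) lies at chr28:33866803-33877585 and GSR (ENSECAG00000014178) at chr27:13740542-13781481. CAT and PRDX5 share chromosome 12, and the other members lie on separate chromosomes. GSR was the most thinly counted member, with 49 to 165 reads per library, and the other 8 had between 256 and 5309. At 49 reads counting error alone is 14.3% of the value, whereas at 5309 reads it is 1.37%. No gene lengths were used, so levels are compared within a gene and not between genes.

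SOD2 was the one member called in T1 relative to T0: it rose after the gallop phase by 0.49 on the log2 scale (SE 0.13). CAT had a difference of the same size that did not pass, and differences between members were not tested. SOD2 then fell in T2 relative to T1 by 0.35 on the log2 scale (SE 0.11), and its T2 level did not pass the test against T0. TXN2 rose in T2 relative to T0 by 0.32 (SE 0.11). The other 7 members passed in none of the 3 comparisons. These calls are from edgeR's quasi-likelihood test on 1 fit of the 3 time points, with Benjamini-Hochberg adjustment over all 11545 genes and a threshold of 0.05.

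In T1 against T0 the test called 1 of 9 members, which was higher, where 6.91% of all tested genes were called (3.57% higher and 3.34% lower). In T2 against T1 it called 1 of 9, which was lower, where 27.6% of all tested genes were called (12.6% higher and 15.1% lower). In T2 against T0 it called 1 of 9, which was higher, where 16% of all tested genes were called (6.73% higher and 9.30% lower). The 3 comparisons share libraries, so their values are not independent of each other. The median log2 fold change of the 9 members was 0.35 in T1 minus T0 (median of all tested genes -0.02), -0.05 in T2 minus T1 (all tested genes -0.01) and 0.29 in T2 minus T0 (all tested genes -0.03). Scaling by total counts with no TMM factor, an alternative added after seeing the data, moved the median of all genes to -0.42, 0.13 and -0.29 in these comparisons and left no member called in T1 minus T0 or T2 minus T0. In T1 minus T0 all 9 members had positive fold changes with TMM, 3 had positive ones with total counts, and all 9 lay above the median of all genes under both scalings, by 0.08 to 0.51 with TMM and by 0.06 to 0.55 with total counts. With that fibre score entered as a covariate, 4 of the 9 stayed positive.

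**Figure D1:**
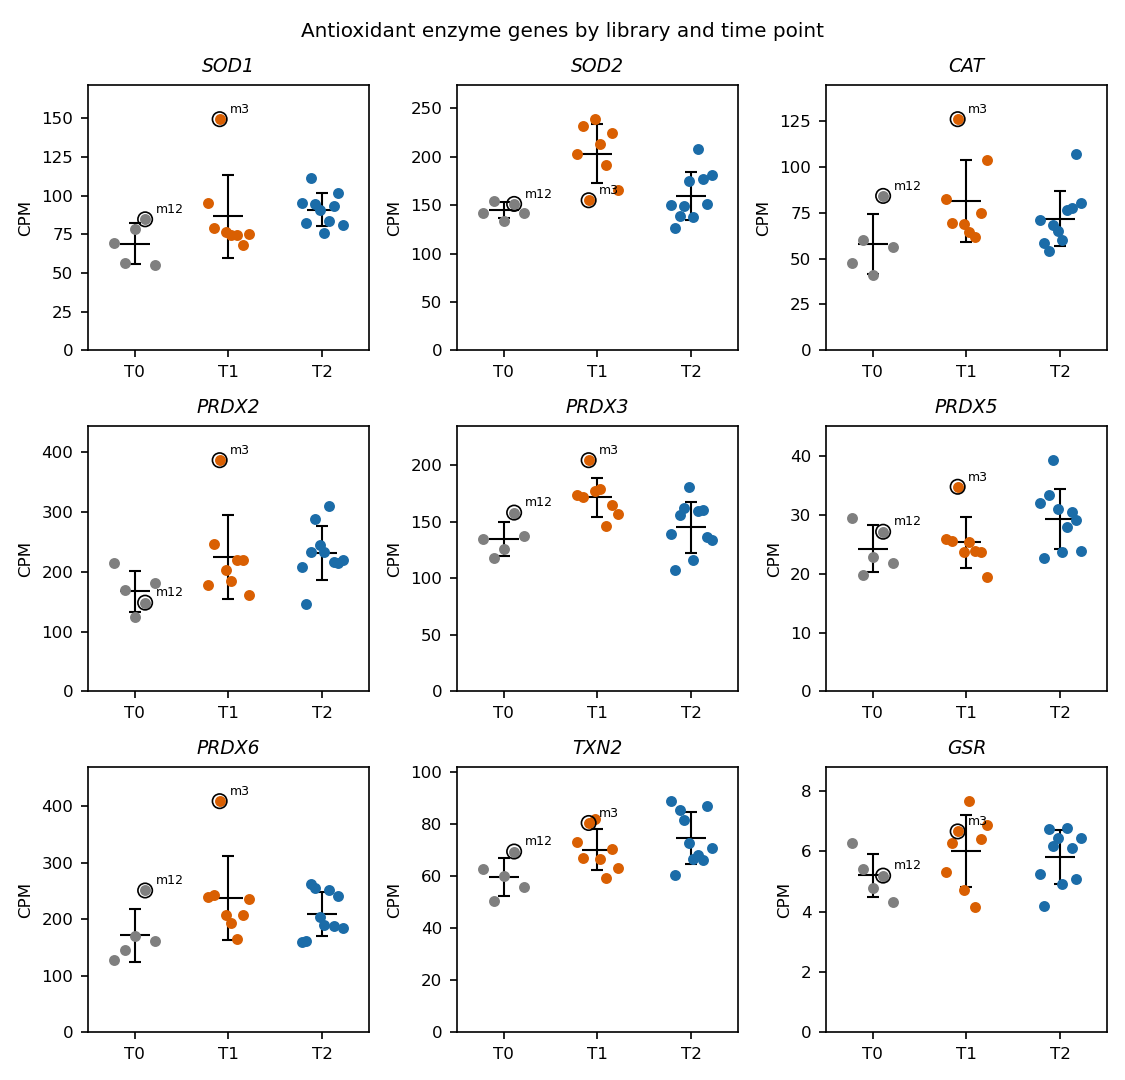
Level of each antioxidant enzyme gene in every library, in CPM with TMM-scaled library sizes (y axis, from 0), by time point (x axis: T0, 5 libraries; T1, 8; T2, 10). Points are libraries, horizontal lines are means and bars are 1 SD, and libraries m3 and m12 are ringed; SOD2 is the gene whose T1 libraries all lie above its T0 libraries, and m3 is the highest T1 library in 6 of 9 panels and the lowest in the SOD2 panel.

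SOD2 encodes the manganese superoxide dismutase of the mitochondrial matrix. The untrained horses had 141.4 (m8), 154.7 (m9), 133.9 (m10), 151.2 (m12) and 141.7 CPM (m13). T1 libraries ran from 155.0 CPM (m3) over a median of 208.0 to 238.8 CPM (m4), and T2 libraries from 125.9 CPM (m15) over a median of 150.4 to 207.6 CPM (m20). All 8 T1 libraries therefore lay above all 5 T0 libraries, though m3 did so by under 1 CPM, and 2.98% of all tested genes had T1 and T0 libraries that did not overlap. Of the 10 T2 libraries, 6 lay below every T1 library and 4 within the T1 range. Against T0, 4 of the T2 libraries were above, 1 below and 5 within its range. Every member's groups overlapped in T2 against T1 and in T2 against T0, where 2.23% and 2.67% of all tested genes had groups that did not.

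Mean SOD2 level was 202.9 ± 30.5 CPM in T1 (SD, n = 8) and 144.6 ± 8.34 CPM in T0 (SD, n = 5), a 1.40-fold difference (95% interval of the log2 fold change 0.22 to 0.76, adjusted p = 0.0241). It was 159.3 ± 25.0 CPM in T2 (SD, n = 10), which was lower than in T1 (interval -0.57 to -0.13, adjusted p = 0.0166). T2 minus T0 was 0.14 ± 0.12 (SE, interval -0.12 to 0.40, adjusted p = 0.456). In order of level the time points ran T0, T2, T1, where T0 and T2 did not pass and T2 and T1 did. The rise in T1 lost its call without T0 library m10 (log2 fold change 0.47, adjusted p = 0.0714) and kept it in the other 22 fits that each left out 1 library. The fall in T2 kept its call in all 23 of these fits. With total counts and no TMM factor the log2 fold changes were 0.10 (adjusted p = 0.658) and -0.22 (adjusted p = 0.300), which lay 0.52 above and 0.35 below the median of all genes, against 0.51 above and 0.34 below it with TMM. With the totals of nuclear genes alone they were 0.39 (adjusted p = 0.184) and -0.35 (adjusted p = 0.0706).

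SOD1 encodes the copper and zinc superoxide dismutase, found mainly in the cytosol. It had 69.6, 56.7, 78.6, 84.7 and 54.9 CPM in T0 libraries m8, m9, m10, m12 and m13. T1 libraries had 67.9 to 149.3 CPM with a median of 75.5, and T2 libraries had 75.7 to 111.2 CPM with a median of 92.1. The T1 maximum is m3, the next T1 library had 95.4 CPM, and 6 of 8 T1 libraries lay within the T0 range. In T2, 6 of 10 libraries lay above every T0 library. SOD1 passed in no comparison: T1 minus T0 was 0.33 ± 0.16 (SE, adjusted p = 0.234), T2 minus T1 was 0.07 ± 0.13 (adjusted p = 0.719) and T2 minus T0 was 0.40 ± 0.16 (adjusted p = 0.0760). The last value passed without T1 library m3 (0.41, adjusted p = 0.0144), without T0 library m12 (0.49, adjusted p = 0.0406), and in DESeq2 and limma voom.

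The ratio of the mitochondrial to the cytosolic dismutase was compared after the data were seen, as the difference of SOD2 and SOD1 in log2 CPM. It averaged 1.09 ± 0.31 (SD, n = 5) at T0, 1.26 ± 0.54 (SD, n = 8) at T1 and 0.80 ± 0.30 (SD, n = 10) at T2. T2 minus T1 was -0.46 with an exact two-sided permutation p of 0.0366, which did not pass after adjustment over 12 such comparisons (adjusted p = 0.110). The lowest T1 ratio was 0.05, in m3, and the other 7 ran from 1.08 to 1.72. Without m3 the T1 mean was 1.43 ± 0.25 (SD, n = 7), T2 minus T1 was -0.63 and passed (exact permutation p = 0.000771, adjusted p = 0.00926), and T1 minus T0 was 0.34 (exact permutation p = 0.0581, adjusted p = 0.0996), against 0.17 with m3.

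CAT encodes catalase, the peroxisomal enzyme that splits hydrogen peroxide into water and oxygen. It had 47.5, 60.0, 41.0, 84.1 and 56.3 CPM in T0 libraries m8, m9, m10, m12 and m13, so m12 was well above the other 4. T1 libraries had 61.9 to 125.8 CPM (median 71.8), with the highest value in m3, and T2 libraries had 54.2 to 106.8 CPM (median 69.7), with the highest in m22. The groups overlapped in every comparison. T1 minus T0 was 0.49 ± 0.19 (SE, interval 0.11 to 0.88, adjusted p = 0.112), as large as the SOD2 difference but with a wider error. It passed without m12 (0.67, adjusted p = 0.0308), without both m3 and m12, and in limma voom. T2 minus T1 was -0.18 ± 0.15 (adjusted p = 0.399) and T2 minus T0 was 0.31 ± 0.18 (adjusted p = 0.232). The last value passed in 2 of 12 other settings, limma voom (0.48, adjusted p = 0.0342) and both m3 and m12 left out (0.50, adjusted p = 0.0239). It passed in 0 of 23 fits that each left out 1 library.

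**Figure D2:**
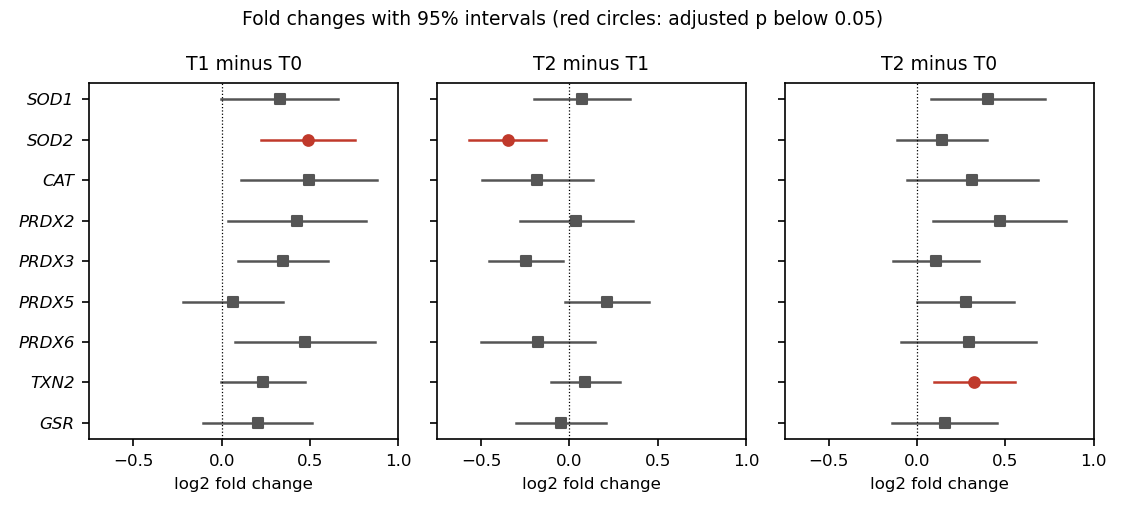
Log2 fold change (x axis) of each antioxidant enzyme gene (y axis) in T1 minus T0, T2 minus T1 and T2 minus T0, with TMM scaling. Lines are 95% intervals, red circles mark an adjusted p below 0.05 and grey squares the rest; SOD2 is marked in T1 minus T0 (0.49) and T2 minus T1 (-0.35) and TXN2 in T2 minus T0 (0.32), calls that total-count scaling did not keep.

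PRDX3 encodes the peroxiredoxin of the mitochondrial matrix. Its T0 libraries had 134.6 (m8), 118.2 (m9), 126.1 (m10), 158.2 (m12) and 137.6 CPM (m13). T1 libraries had 146.4 to 204.6 CPM (median 172.6) and T2 libraries 107.1 to 180.5 CPM (median 147.6). In T1, 6 of 8 libraries lay above every T0 library (8 of 8 for SOD2). In T2, 5 of 10 lay below every T1 library (6 of 10 for SOD2). Single libraries were placed differently. Library m3 was the highest in T1 for PRDX3 and the lowest for SOD2, and m9 the lowest in T0 for PRDX3 and the highest for SOD2. The fold changes of PRDX3 were smaller than those of SOD2, at 0.35 ± 0.12 in T1 minus T0 (SE, adjusted p = 0.0864) and -0.24 ± 0.10 in T2 minus T1 (adjusted p = 0.0752), and neither passed. DESeq2 called both (adjusted p below 0.05), as did limma voom, and the second passed without T2 library m18 (-0.28, adjusted p = 0.0416). T2 minus T0 was 0.11 ± 0.12 (adjusted p = 0.566).

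PRDX5, a peroxiredoxin found in mitochondria, peroxisomes and cytosol, had its highest mean in T2. The means were 24.2 ± 3.98 CPM in T0 (SD, n = 5), 25.3 ± 4.33 CPM in T1 (SD, n = 8) and 29.3 ± 5.10 CPM in T2 (SD, n = 10). Of the 10 T2 libraries, 5 lay above every T0 library and 1 above every T1 library. T2 minus T1 was 0.21 ± 0.11 (SE, adjusted p = 0.168), T2 minus T0 was 0.28 ± 0.13 (adjusted p = 0.155) and T1 minus T0 was 0.06 ± 0.14 (adjusted p = 0.850). The first value passed without T1 library m3 (0.28, adjusted p = 0.0406), without both m3 and m12 (0.29, adjusted p = 0.0394) and with total-count scaling (0.36, adjusted p = 0.0256).

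PRDX2 encodes a cytosolic peroxiredoxin that is also abundant in red blood cells, whose marker genes were not analysed here. T0 libraries had 214.6 (m8), 168.8 (m9), 123.8 (m10), 148.4 (m12) and 180.9 CPM (m13). T1 libraries had 161.4 to 386.6 CPM (median 211.6) and T2 libraries 146.0 to 309.3 CPM (median 226.4). The T1 maximum is m3, and the next T1 library had 246.3 CPM. In T2, 7 of 10 libraries lay above every T0 library. T1 minus T0 was 0.43 ± 0.19 (SE, adjusted p = 0.180), T2 minus T1 was 0.04 ± 0.16 (adjusted p = 0.872) and T2 minus T0 was 0.47 ± 0.18 (adjusted p = 0.0784). The last value passed in 3 of 12 other settings: DESeq2, limma voom, and both m3 and m12 left out (0.43, adjusted p = 0.0466). Of 23 fits that each left out 1 library, it passed in 3. These were the fits without T1 library m3 (0.47, adjusted p = 0.0267), T0 library m8 (0.59, adjusted p = 0.0474) or T2 library m15 (0.52, adjusted p = 0.0372).

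PRDX6 encodes a peroxiredoxin with a single catalytic cysteine that also reduces phospholipid peroxides. T0 libraries had 127.4 (m8), 145.8 (m9), 170.8 (m10), 250.7 (m12) and 161.7 CPM (m13), and m12 again lay far above the other 4. T1 libraries had 165.2 to 408.4 CPM (median 221.3), and T2 libraries 160.4 to 261.8 CPM (median 197.0). Library m3 alone exceeded the T0 range in T1. T1 minus T0 was 0.47 ± 0.19 (SE, adjusted p = 0.141), which passed without m12 (0.65, adjusted p = 0.0405), without both m3 and m12, and in limma voom. T2 minus T1 was -0.18 ± 0.16 (adjusted p = 0.420) and T2 minus T0 was 0.29 ± 0.18 (adjusted p = 0.279). The last value passed in 1 of 12 other settings, both m3 and m12 left out (0.48, adjusted p = 0.0153). It passed in 0 of 23 fits that each left out 1 library.

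TXN2 encodes mitochondrial thioredoxin, the electron donor of PRDX3. T0 libraries had 62.9 (m8), 50.3 (m9), 60.1 (m10), 69.5 (m12) and 56.1 CPM (m13). T1 libraries had 59.4 to 82.0 CPM (median 68.6) and T2 libraries 60.6 to 88.9 CPM (median 71.8). In T2, 6 of 10 libraries lay above every T0 library and 4 within the T0 range. The mean was 74.8 ± 10.03 CPM in T2 (SD, n = 10) and 59.8 ± 7.21 CPM in T0 (SD, n = 5), a 1.25-fold difference (interval of the log2 fold change 0.10 to 0.55, adjusted p = 0.0470). T1 minus T0 was 0.23 ± 0.11 (SE, adjusted p = 0.236) and T2 minus T1 was 0.09 ± 0.09 (adjusted p = 0.502), so neighbouring time points did not pass. The T2 call held in 10 of 23 fits that each left out 1 library. It ended without T1 library m1, m2, m5 or m7, T0 library m8, m9, m10 or m13, or T2 library m14, m16, m17, m18 or m22, with adjusted p from 0.0509 to 0.128 and a log2 fold change of 0.27 to 0.36. The call also ended with no filter on low counts, with sex or the fibre score as a covariate, when the third time point left the fit, and with total counts (0.07, adjusted p = 0.710) or nuclear gene totals (0.21, adjusted p = 0.239) in place of TMM.

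GSR encodes glutathione reductase, which restores reduced glutathione with NADPH. It had 4.33 to 6.27 CPM in T0 (median 5.19), 4.15 to 7.66 CPM in T1 (median 6.34) and 4.20 to 6.76 CPM in T2 (median 6.14). Of the 8 T1 libraries, 4 lay above every T0 library, 1 below and 3 within the T0 range. Of the 10 T2 libraries, 4 lay above every T0 library, 1 below and 5 within, and all 10 lay within the T1 range. Its log2 fold changes were 0.20 ± 0.15 in T1 minus T0 (SE, adjusted p = 0.473), -0.05 ± 0.12 in T2 minus T1 (adjusted p = 0.810) and 0.16 ± 0.14 in T2 minus T0 (adjusted p = 0.472).

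Matrix antioxidant genes were also set against 21 other mitochondrial genes, in a comparison added after the data were seen. These are mostly genes of matrix enzymes and chaperones, with succinate dehydrogenase subunits of the inner membrane and the outer membrane channels VDAC1 and VDAC2 among them. Their mean log2 CPM was 7.47 ± 0.12 (SD, n = 5) at T0, 7.87 ± 0.10 (SD, n = 8) at T1 and 7.77 ± 0.15 (SD, n = 10) at T2. SOD2 minus this mean was -0.29 ± 0.08 in T0, -0.22 ± 0.18 in T1 and -0.47 ± 0.20 in T2. T2 minus T1 was therefore -0.25 for SOD2 (exact permutation p = 0.0152, adjusted p = 0.0909 over 12 comparisons). For TXN2 it was 0.18 (exact permutation p = 0.0150, adjusted p = 0.0909), and for PRDX3 -0.16 (exact permutation p = 0.0515, adjusted p = 0.124). None of the 12 comparisons, the ratio of SOD2 to SOD1 included, passed after adjustment. In T1 minus T0 the ratio of SOD2 to this list differed by 0.07 (exact permutation p = 0.425). Library m3 weighed on these values, with a SOD2 ratio of -0.61, against -0.26 to -0.05 in the other 7 T1 libraries. Without m3 the T1 minus T0 difference was 0.13 (exact permutation p = 0.0278, adjusted p = 0.0815), and T2 minus T1 passed for SOD2 (-0.31, exact permutation p = 0.00247, adjusted p = 0.0148) and for TXN2 (0.21, exact permutation p = 0.00838, adjusted p = 0.0335). With any other single library left out, none of the 12 passed.

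Contractile genes of slow and fast fibres changed in the same comparisons as SOD2. In T1 against T0, 14 of 15 slow fibre contractile genes rose and 5 of 13 fast fibre genes fell. In T2 against T1, 12 of 15 slow genes fell and 11 of 13 fast genes rose. These counts and those of the marker lists below are read against the share of all tested genes called. That share was 6.91% in T1 against T0, 27.6% in T2 against T1 and 16% in T2 against T0. The slow minus fast score lay between -5.40 and -3.58 in T0, between -2.31 and 3.79 in T1 and between -4.81 and -2.44 in T2, so T1 overlapped neither of the others. The fibroblast marker sum was 261.2 ± 145.3 CPM in T0 (SD, n = 5), 128.7 ± 35.8 CPM in T1 (SD, n = 8) and 173.4 ± 63.3 CPM in T2 (SD, n = 10), with 2 of 8 markers called lower in T1 than in T0 (0 to 5 with each library left out, and 0 without m3, m4, m5, m7, m9, m10 or m11). The smooth muscle and pericyte sum was 237.4 ± 150.2 CPM in T0, 142.4 ± 29.3 CPM in T1 and 182.3 ± 45.3 CPM in T2, with 1 of 9 markers called lower in T1 than in T0 and 4 of 9 called lower in T2 than in T0. T0 library m9 held 505.2 CPM of this sum, against 157.5 to 187.8 CPM in the other 4. Without m9 the T0 mean was 170.4 ± 14.6 CPM (SD, n = 4), below that of T2, and 1 of 9 markers was called lower and 1 higher in T2 than in T0. The count called lower was also 1 without m8, m10, m13 or m17 and 2 without m16, m18 or m22. The adipocyte sum was 817.9 ± 127.7 CPM in T0, 634.1 ± 36.1 CPM in T1 and 852.8 ± 115.4 CPM in T2, and GPD1, a glycerol phosphate dehydrogenase that muscle fibres also express, made up most of it. Of 5 adipocyte markers, GPD1 was lower and LPL, a lipoprotein lipase, higher in T1 than in T0, and each was called the other way in T2 against T1. In T1 against T0 no marker of this list was called higher without m3, m8, m11, m12 or m13, and none lower without m10 or m13. ADIPOQ and FABP4, which mark adipocytes, passed in no comparison. SCD, also of this list, was called lower in T2 than in T0 (-2.64 ± 0.79, SE, adjusted p = 0.0289) and passed in neither other comparison. It had 1.74 ± 1.55 CPM in T2 (SD, n = 10) and 11.1 ± 18.2 CPM in T0 (SD, n = 5). Without m10 no marker of this list was called in T2 against T0. The part of fibre composition, of these other cell types and of the mitochondrial share in the SOD2 and TXN2 changes was not tested, and in bulk RNA more cells of a type and more RNA per cell cannot be told apart. With the score as a covariate, SOD2 had a log2 fold change of 0.64 in T1 minus T0 (adjusted p = 0.203), when 1 gene in all was called, and of -0.47 in T2 minus T1 (adjusted p = 0.0218). The same fit called SOD1 higher in T2 than in T1 (0.50, adjusted p = 0.0227).

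Within a time point the members differed in how they tracked the score, over 36 relations tested by two-sided permutation and adjusted together. CAT was positively related to it across the 8 T1 libraries (Pearson r = 0.94, exact permutation p = 0.00141, adjusted p = 0.0460; Spearman rho = 0.90, exact permutation p = 0.00456, adjusted p = 0.0460), and r was 0.71 without m3 and m11 (n = 6). SOD2 had the opposite sign in T1 (r = -0.86, exact permutation p = 0.00451, adjusted p = 0.0460; rho = -0.67, exact permutation p = 0.0831, adjusted p = 0.299). Without m3 and m11 its r was -0.36 (n = 6), so the relation rests on those libraries. Across the 10 T2 libraries SOD2 was positively related to the score (r = 0.68, permutation p = 0.0311, adjusted p = 0.140; rho = 0.83, permutation p = 0.00511, adjusted p = 0.0460), and r was 0.80 without m17 and m23. The difference between the T1 and T2 relations was not tested. PRDX6 in T1 had r = 0.90 (exact permutation p = 0.00836, adjusted p = 0.0602) and rho = 0.76 (exact permutation p = 0.0368, adjusted p = 0.147), with r = 0.61 without m3 and m11. SOD1 in T1 had r = 0.86 (exact permutation p = 0.0291, adjusted p = 0.140) and rho = 0.55 (exact permutation p = 0.171, adjusted p = 0.443), with r = 0.78 without m3 and m11.

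**Figure D3:**
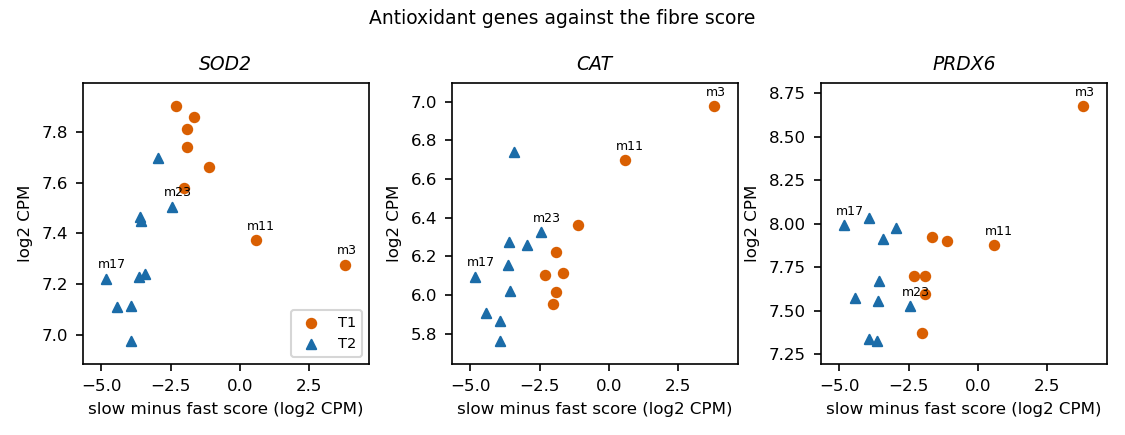
Log2 CPM of SOD2, CAT and PRDX6 (y axes) against the slow minus fast fibre score (x axis, difference of mean log2 CPM) in the T1 libraries (circles, 8) and the T2 libraries (triangles, 10). In T1, m3 and m11 lie apart from the other 6 libraries, high for CAT (r = 0.94) and low for SOD2 (r = -0.86), and in T2 SOD2 is higher where the score is higher (r = 0.68).

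Across the 23 libraries, with time point means removed, members other than SOD2 varied together. All 28 pairs without SOD2 had positive correlations, from 0.14 to 0.73 with a median of 0.47. The closest pairs were PRDX3 with PRDX5 (0.73), SOD1 with PRDX6 (0.73) and SOD1 with PRDX5 (0.72). SOD2 stood outside this group, with correlations from -0.39 (SOD1) to 0.33 (PRDX3) and 5 of 8 negative. This contrast rests partly on m3, which was the highest T1 library for SOD1, CAT, PRDX2, PRDX3, PRDX5 and PRDX6 and the lowest for SOD2. Without m3, 7 of the 8 SOD2 pairs were positive (-0.12 to 0.55), and 25 of the other 28 were (-0.18 to 0.70). These values are descriptions, since all points share the scaling of their library.

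**Figure D4:**
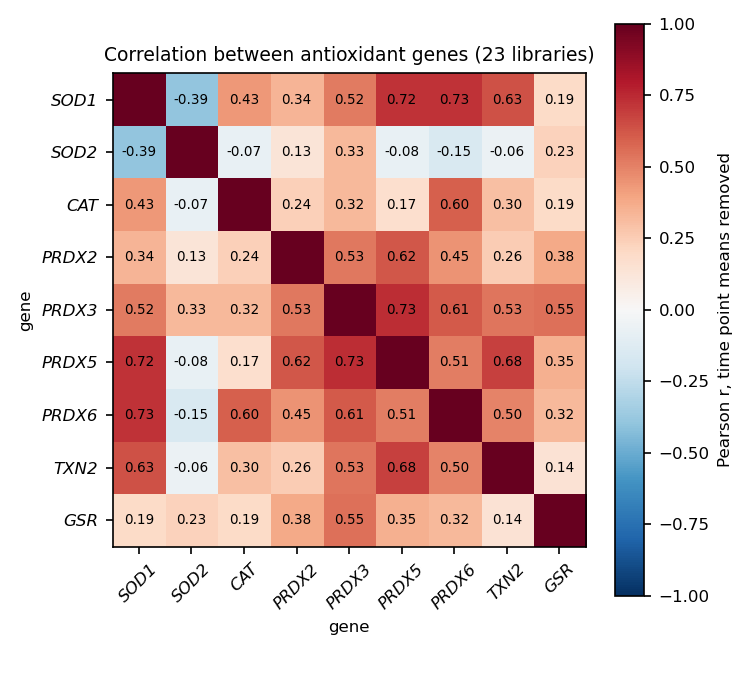
Pearson correlation of log2 CPM between antioxidant enzyme genes (both axes) over 23 libraries after subtracting each time point's mean; colour gives r from -1 to 1. The SOD2 row and column hold the 5 negative values, down to -0.39 with SOD1, and the other 28 pairs lie between 0.14 and 0.73.

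The place of m3 depended on the scaling. With total counts and no TMM factor it was the highest T1 library for 3 members and the lowest for 3, SOD2 among these at 102.3 CPM, against 163.1 CPM in the next lowest. Library m12 was the highest T0 library for 5 members with TMM and the lowest for 6 with total counts. In T2, m15 was the lowest library for 6 members with TMM and for 1 with total counts.

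The 5 genes whose log2 CPM followed the mean standardized level of the 9 members most closely over 23 libraries, of 6392 compared, were COX4I1, a cytochrome c oxidase subunit (r = 0.93), ETFA, a subunit of the electron transfer flavoprotein (0.91), MRPL24, a mitochondrial ribosomal protein (0.91), NDUFA3, a complex I subunit (0.90), and UQCRC2, a complex III core protein (0.90). After removal of time point means the values were 0.89, 0.87, 0.87, 0.84 and 0.83 in the same order of genes.

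Lists of genes that act beside the members are read against the share of all tested genes called, 6.91% in T1 against T0, 27.6% in T2 against T1 and 16% in T2 against T0. Of 22 tested genes for other peroxidases, thioredoxin partners and repair enzymes, 5 rose and 1 fell in T1 against T0, 5 rose and 4 fell in T2 against T1, and 2 rose in T2 against T0 (27.3%, 40.9% and 9.09% called). TXNRD1, the cytosolic thioredoxin reductase, rose by 0.69 ± 0.13 in T1 against T0 (SE, adjusted p = 0.00228), with 24.5 ± 3.37 CPM in T1 (SD, n = 8) and 15.1 ± 1.83 CPM in T0 (SD, n = 5). GLRX5, a mitochondrial glutaredoxin of iron-sulfur cluster assembly, rose by 0.84 ± 0.19 (adjusted p = 0.0106). GPX3, a secreted glutathione peroxidase, fell by 1.14 log2 units (SE 0.24, adjusted p = 0.00575), with 1.99 ± 0.597 CPM in T1 and 4.404 ± 0.911 CPM in T0. GPX1, the main intracellular glutathione peroxidase, and the selenoproteins SEPW1 and SEPP1 were also higher in T1 than in T0, and are named after their values were seen.

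In T2 against T1, TXNL1, a thioredoxin-like protein of the proteasome, rose by 0.65 ± 0.09 (SE, adjusted p = 3.24e-05). PRDX4, the peroxiredoxin of the endoplasmic reticulum, rose by 0.63 ± 0.12 (adjusted p = 0.000655). GPX3 rose by 0.90 ± 0.21 (adjusted p = 0.00280). Of the genes higher in T1 than in T0, TXNRD1 (-0.43 ± 0.10, adjusted p = 0.00304), GLRX5 (-0.47 ± 0.16, adjusted p = 0.0277) and SEPP1 (-0.33 ± 0.11, adjusted p = 0.0310) fell. GPX1 (-0.36 ± 0.16, adjusted p = 0.0941) and SEPW1 (-0.10 ± 0.13, adjusted p = 0.606) did not pass. OXR1 also fell (-0.33 ± 0.11, adjusted p = 0.0232). These falls are named after their values were seen. In T2 against T0, TXNL1 rose by 0.38 ± 0.11 (adjusted p = 0.0203) and SEPW1 by 0.54 ± 0.15 (adjusted p = 0.0209).

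**Figure D5:**
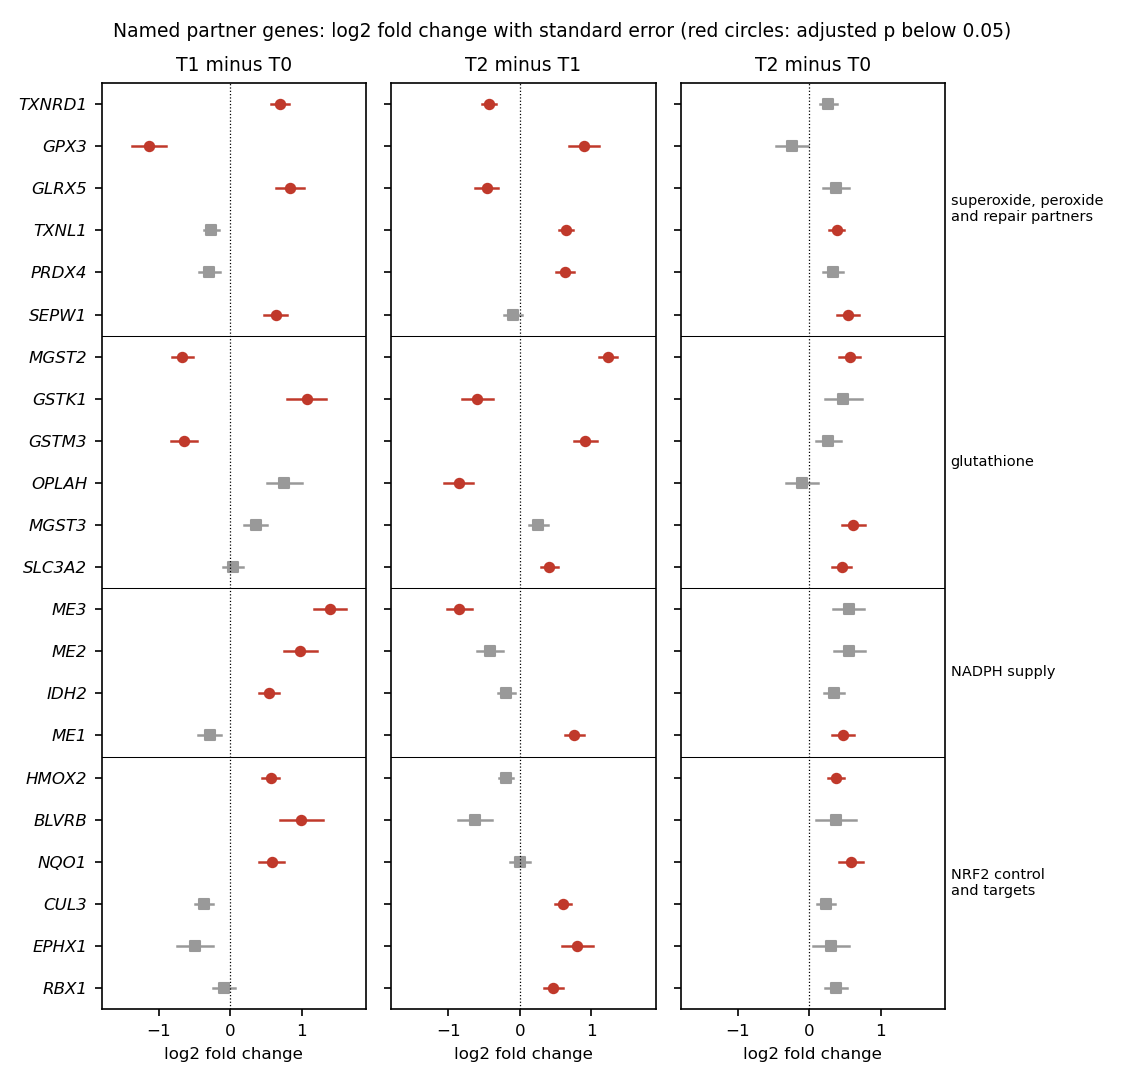
Log2 fold change (x axis) with its standard error for the named genes of 4 partner lists (y axis, grouped by list) in T1 minus T0, T2 minus T1 and T2 minus T0, with TMM scaling; red circles mark an adjusted p below 0.05 and grey squares the rest. MGST2 (-0.67, then 1.24) and GPX3 (-1.14, then 0.90) were lower in T1 than in T0 and higher in T2 than in T1, and ME3 (1.40, then -0.85) moved the other way.

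Of 18 genes of glutathione synthesis and conjugation, 1 rose and 2 fell in T1 against T0, 5 rose and 2 fell in T2 against T1, and 3 rose in T2 against T0 (16.7%, 38.9% and 16.7% called). MGST2, a microsomal glutathione transferase, had 6.97 ± 1.54 CPM in T1 (SD, n = 8) and 11.1 ± 0.53 CPM in T0 (SD, n = 5), a fall of 0.67 log2 units (SE 0.15, adjusted p = 0.00778). It reached 16.5 ± 3.00 CPM in T2 (SD, n = 10), which was 1.24 ± 0.13 above T1 (adjusted p = 2.40e-06) and 0.57 ± 0.15 above T0 (adjusted p = 0.0127). GSTK1, a mitochondrial and peroxisomal glutathione transferase, rose by 1.07 ± 0.27 in T1 against T0 (adjusted p = 0.0186). In T2 against T1 GSTK1 fell by 0.60 log2 units (SE 0.21, adjusted p = 0.0409). GSTM3, a cytosolic glutathione transferase, fell by 0.65 log2 units in T1 against T0 (SE 0.18, adjusted p = 0.0304) and rose by 0.92 ± 0.16 in T2 against T1 (adjusted p = 0.000191), though GSTM genes are close paralogs and the division of reads among them is uncertain. OPLAH, the oxoprolinase of the glutathione cycle, fell by 0.86 log2 units in T2 against T1 (SE 0.20, adjusted p = 0.00251). MGST3 (0.61 ± 0.16, adjusted p = 0.0138) and SLC3A2, a subunit of the cystine transporter (0.45 ± 0.13, adjusted p = 0.0232), rose in T2 against T0.

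Of 16 genes that supply NADPH, 4 rose in T1 against T0 (25% called), and 12.5% were called in T2 against T1 and 6.25% in T2 against T0. They included the mitochondrial malic enzymes ME3 (1.40 ± 0.23, SE, adjusted p = 0.00113) and ME2 (0.98 ± 0.23, adjusted p = 0.0116) and the mitochondrial isocitrate dehydrogenase IDH2 (0.54 ± 0.15, adjusted p = 0.0250). In T2 against T1, ME3 fell by 0.85 log2 units (SE 0.18, adjusted p = 0.00112) and the cytosolic malic enzyme ME1 rose by 0.76 ± 0.13 (adjusted p = 0.000243). ME1 was the 1 gene of this list called in T2 against T0 (0.47 ± 0.15, adjusted p = 0.0389).

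NRF2, encoded by NFE2L2, is a transcription factor that drives many antioxidant genes and is held in check by KEAP1 and its CUL3 ligase. NFE2L2 had 19.8 ± 4.83 CPM in T0 (SD, n = 5), 22.9 ± 2.83 CPM in T1 (SD, n = 8) and 28.7 ± 11.9 CPM in T2 (SD, n = 10). It is named for its role and passed in no comparison (T2 minus T0 0.53 ± 0.21, SE, adjusted p = 0.0825). Of 19 genes of this control and its targets, 3 rose in T1 against T0, 3 rose and 5 fell in T2 against T1, and 2 rose in T2 against T0 (15.8%, 42.1% and 10.5% called). HMOX2, the constitutive haem oxygenase, rose by 0.56 ± 0.12 in T1 (adjusted p = 0.00518), NQO1, a quinone reductase and textbook NRF2 target, by 0.58 ± 0.18 (adjusted p = 0.0447), and BLVRB, a biliverdin reductase, by 0.996 ± 0.298 (adjusted p = 0.0440). NQO1 was again higher than T0 in T2 (0.58 ± 0.17, adjusted p = 0.0225), as was HMOX2 (0.37 ± 0.11, adjusted p = 0.0284). In T2 against T1, CUL3 rose by 0.60 ± 0.11 (adjusted p = 0.000347), its partner RBX1 by 0.47 ± 0.13 (adjusted p = 0.0102) and EPHX1, a microsomal epoxide hydrolase, by 0.80 ± 0.22 (adjusted p = 0.00830). The 5 genes that fell are named after their values were seen. They were NFE2L1 (-0.39 ± 0.11, adjusted p = 0.0107), MAFG (-0.52 ± 0.17, adjusted p = 0.0221) and BACH1 (-0.67 ± 0.22, adjusted p = 0.0259). The others were ABCC1 (-0.55 ± 0.20, adjusted p = 0.0422) and NQO2 (-0.37 ± 0.14, adjusted p = 0.0487).

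Of 8 tested oxidant-producing enzymes, 2 were called, both in T2 against T1 (25%, below the 27.6% of all tested genes). RAC1, a GTPase that activates NADPH oxidase, rose by 0.39 ± 0.10 (SE, adjusted p = 0.00560). MAOA, a monoamine oxidase that releases hydrogen peroxide, fell by 1.29 log2 units (SE 0.40, adjusted p = 0.0207). Of 27 peroxisome genes, the compartment of CAT, 4 rose in T1 against T0, 4 fell in T2 against T1, and 3 rose and 1 fell in T2 against T0 (14.8% called in each, below the share of all genes in T2 against T1 and in T2 against T0). CROT (0.51 ± 0.13, adjusted p = 0.0179), a carnitine acyltransferase, and ACAA1 (0.55 ± 0.16, adjusted p = 0.0350), a thiolase, rose in T1 against T0. Of the 21 other mitochondrial genes, 6 rose in T1 against T0 (28.6%), 4 fell in T2 against T1 (19%, below the share of all genes) and 8 rose in T2 against T0 (38.1%). The smallest p in T1 against T0 belonged to HSPD1, a matrix chaperonin (0.62 ± 0.12, SE, adjusted p = 0.00381), and SDHB, a succinate dehydrogenase subunit (0.67 ± 0.15, adjusted p = 0.00731). In T2 against T1 their values were 0.00145 ± 0.0996 (adjusted p = 0.994) and -0.0919 ± 0.118 (adjusted p = 0.590), and both were called higher in T2 than in T0. CS, the citrate synthase, was higher in T1 than in T0 (0.57 ± 0.14, adjusted p = 0.0127) and lower in T2 than in T1 (-0.39 ± 0.11, adjusted p = 0.0101), and OGDH, a subunit of the oxoglutarate dehydrogenase complex, fell in T2 against T1 by 0.55 log2 units (SE 0.13, adjusted p = 0.00239).

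Sex was compared in a model with time point, over 14 male and 9 female libraries. None of the 9 members and none of the 11545 genes passed by edgeR, with 719 of 11545 genes and 0 of 9 members at an unadjusted p under 0.05. The male minus female log2 fold changes of the members lay between 0.05 (SOD2) and 0.21 (GSR), and GSR had the lowest p of the members (unadjusted p = 0.0626, adjusted p = 0.802). A sex by time point interaction was called for no gene, with 305 of 11545 at an unadjusted p under 0.05 and none of the members among the called.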

How the data were processed

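RNA from 23 gluteus medius biopsies had an integrity number above 8.5 and was sequenced in 50 cycles with 6 technical repetitions, per the labels' protocols (the sources used here do not say how the repetitions were joined). Per the submitters' processing notes FastQC, STAR, RSEM and DESeq2 were used. The authors deposited RSEM expected counts, all of them whole numbers, of 26991 genes and 29196 transcripts. RSEM divides reads that match several genes, and the kit named in the labels does not mark strand, so paralogs and overlapping genes may share reads. The deposited comparison tables name their groups by letters and were used only for symbols and coordinates (9628 identifiers, 8842 with a symbol).

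Genes were kept by filterByExpr (minimum count 10, minimum total 15), TMM-scaled and fitted with all 3 time points together in edgeR 4.0.16 in R 4.3.3 (robust quasi-likelihood F test, Benjamini-Hochberg, threshold 0.05). The standard error is the absolute log2 fold change divided by the square root of F, and 95% intervals use the degrees of freedom of the fit. Log2 CPM used a prior count of 2. Since the labels do not name the horses, p-values reflect only how these libraries vary. Relations with the fibre score used exact permutation for 8 libraries and 100000 resamples for 10. The alternatives were RLE factors, no filter, DESeq2 1.42.0, limma 3.58.1 voom with sample weights, sex or the fibre score as a covariate, only 2 time points, libraries m3 and m12 left out, mitochondrially encoded genes left out, no robust fit, and each library left out in turn. Scaling by total counts or by nuclear gene totals, the ratios, and leaving each library out of the ratios and marker lists, were added after seeing the data. The members and lists were chosen with earlier results of these data known. Named genes are all members, up to 3 called genes of smallest p per list and comparison, and the 5 closest in pattern. One peroxisome gene that the rule names is not reported here. The test was checked on simulated data.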

Additional observations from a re-analysis of the deposited data

Results flagged for a closer look

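In 5 of 27 groups, formed by 9 genes and 3 time points, a single library lay apart from the others by Dixon's criterion, which chance meets in about 1 group in 20. Of these, 4 were T1 library m3, with 149.3 CPM for SOD1, 386.6 CPM for PRDX2, 34.8 CPM for PRDX5 and 408.4 CPM for PRDX6. This library had the lowest TMM factor (0.66) and a fibre score of 3.79, and the part of either in these values was not tested. The remaining value was 106.8 CPM for CAT in T2 library m22.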

How the results depend on the processing

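No paired analysis was possible because the labels do not tie libraries to horses and no replicate number is shared between time points. The number of members called in T1 minus T0 was 1, and became 2 in DESeq2, 4 in limma voom, 3 without m3 and m12, and 0 with the fibre score as a covariate, with total counts or with nuclear totals, and 0 to 3 when each library was left out in turn (0 without m10, 3 without m12). In T2 minus T1 it was 1, and became 2 in DESeq2, in limma voom, with the fibre score and without m3 and m12, 0 with nuclear totals, and 1 to 2 with each library left out. With total counts it stayed 1, but the member called was PRDX5 (higher) in place of SOD2. In T2 minus T0 it was 1, and became 0 with no filter, with sex, with the fibre score, with total counts and with nuclear totals, 3 in DESeq2, 4 in limma voom, 5 without m3 and m12, and 0 to 3 with each library left out. With only 2 time points in the fit it stayed 1, with SOD1 called in place of TXN2. Member transcripts called over the 3 comparisons were 3, and 5 in DESeq2. Over all genes, the T1 minus T0 count of 798 became 1512 in limma voom, 1 with the fibre score, 3377 with total counts (127 higher, 3250 lower) and 346 (without m10) to 904 with a library left out. The T2 minus T0 count of 1851 became 2940 in limma voom, 2947 without m3 and m12, 1019 with nuclear totals (196 higher, 823 lower) and 986 (without m13) to 2414 with a library left out, 1075 without m9. Nuclear totals gave 194 higher and 453 lower genes in T1 minus T0, and total counts gave 2073 higher and 632 lower genes in T2 minus T1 and 46 higher and 1549 lower genes in T2 minus T0. In T2 minus T1, limma voom called 2143 higher and 2279 lower of 11545 genes, and DESeq2 1634 higher and 1858 lower of 13277. Without m3 and m12 it was 1987 higher and 1970 lower of 11700. DESeq2 called 1130 higher and 1177 lower of 12527 genes in T2 minus T0. Member counts are to be read beside these totals.

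Fold changes that turned sign had no call before or after. In T1 minus T0 they were, with the fibre score, SOD1 -0.16, CAT -0.13, PRDX5 -0.11, PRDX6 -0.0355 and GSR -0.0281, with total counts SOD1 -0.10, PRDX2 -0.0287, PRDX3 -0.0391, PRDX5 -0.36, TXN2 -0.16 and GSR -0.22, with nuclear totals PRDX5 -0.0766, and over the fits with a library left out PRDX5 -0.00567 (without m3) to 0.152. In T2 minus T1 they were, with the fibre score, CAT 0.34, PRDX6 0.25 and GSR 0.15, with total counts GSR 0.0927, and over the fits with a library left out PRDX2 -0.0151 (without m20) to 0.190 and GSR -0.111 to 0.0130 (without m5). In T2 minus T0 they were, with total counts, SOD2 -0.12, PRDX3 -0.14 and GSR -0.13. The cause of these changes was not tested. GSR, at 49 to 165 reads per library, is the member most limited by depth.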
